A study of Mus musculus with 6 samples.

Results

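The genes described here encode the voltage-gated sodium channels, the voltage-gated calcium channels and the hyperpolarization-activated HCN channels of the mouse, together with the auxiliary subunits of the sodium and calcium channels. They were taken by symbol from the genes of the count table (Scn genes ending in a or b, Cacna1, Cacna2d, Cacnb and Cacng genes, and Hcn genes), which gave 44 of 43346 genes, of which 24 encode pore-forming subunits and 20 encode auxiliary subunits. Counts of RNA sequencing reads per gene were available for 6 libraries of primary cortical cell culture, made from fetal mouse brain at gestational day 15.5. In each of cultures 1, 3 and 4, 1 library was from cells given vehicle (DMSO) and 1 from cells given 1 mM 10HDA (10-hydroxy-2-decenoic acid), a fatty acid of royal jelly that is described as estrogenic, and the comparison asks which RNAs differ with 10HDA. The labels give every library the strain Cyp19-EGFP, a line that carries a green fluorescent protein reporter for aromatase, and the genotype SRY+, whereas the methods text on these cultures names embryos of C57BL/6 mice.

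A voltage-gated sodium or calcium channel is built around a single large α subunit that forms the pore and senses the membrane voltage, and HCN channels are assembled from several pore subunits. Sodium channels carry the upstroke of the action potential, calcium channels admit the calcium that triggers transmitter release and gene expression, and HCN channels open on hyperpolarization and help to set the resting potential and rhythmic firing. Auxiliary subunits carry no ion current of their own, and they change how much of the pore subunit reaches the surface and how it gates.

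The libraries held 9144736 to 13367194 counts, and the 44 channel genes together took 0.337% to 0.390% of them. Although every library is labelled SRY+, 4 genes of the Y chromosome (Uty, Kdm5d, Ddx3y and Eif2s3y) summed to 8.89 and 9.21 CPM (reads per gene relative to the library total) in both libraries of culture 1, against 95.2 to 132 CPM in the other 4 libraries, so the channel genes that passed a test, the pore median and the partner count are also given without culture 1. The CPM levels of genes were scaled by the TMM method. Of 12 neuron markers all were tested, and their sum lay between 9502 and 10034 CPM with vehicle and between 7997 and 8906 CPM with 10HDA, and 11 of the 12 had a log2 fold change below 0 (median -0.22, 0 past the threshold without and 5 lower with culture as a block). The lists for excitatory neurons (7 of 9 below 0, median -0.17) and interneurons (8 of 9, median -0.20) had medians below 0 as well, and 9 of 10 tested astrocyte markers were below 0 (median -0.61, 4 past the threshold without and 6 lower with the block, sums of 1271 to 1537 CPM against 972 to 1174 CPM). The medians were -0.046 for the oligodendrocyte lineage (6 of 9 below 0), -0.080 for radial glia (5 of 7), 0.14 for dividing cells (1 of 6), 0.58 for intermediate progenitors (0 of 4), -0.51 for meningeal fibroblasts (2 of 2) and -0.24 for striated muscle (2 of 2), and the 1 tested gene of the endothelial and pericyte list, Pdgfrb, had -1.06. Pdgfrb, the oligodendrocyte precursor gene Cspg4 (-0.91) and the fibroblast gene Dcn (-1.02) fell without the block (edgeR adjusted p = 0.049, 0.049 and 0.042). The rest of their lists did not go with them. The other tested fibroblast gene, Col1a1, had -0.0058 at 0.414 to 1.71 CPM, and the other endothelial and pericyte genes were under the limit for testing. Of the oligodendrocyte lineage, Olig2 (0.25), Olig1 (0.071) and Mog (0.13) were above 0. With the block 2 excitatory neuron, 3 interneuron and 3 oligodendrocyte lineage markers and 1 radial glia marker passed as lower, and 2 intermediate progenitor markers and 1 radial glia marker as higher. None of 8 microglia markers reached the limit for testing, with sums of 0.800 to 1.22 CPM over all libraries and Tmem119 at 0 in all 6. The part of these marker differences in the channel values was not tested, and in bulk RNA fewer cells of a type and less RNA per cell cannot be told apart.

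Of the 44 channel genes, 34 had at least 1 CPM in at least 3 libraries and were tested, 18 of 24 pore subunits and 16 of 20 auxiliary subunits. The 10 others were counted 0 to 19 times in a library. They were the skeletal muscle genes Scn4a, Cacna1s, Cacng1 and Cacng6, the sensory neuron genes Scn10a and Scn11a, the sodium-sensing channel gene Scn7a, the retinal genes Cacna1f and Cacna2d4, and Scn4b. Just outside the limit was Cacng1, with 8, 5 and 4 counts in the vehicle libraries of cultures 1, 3 and 4 and 10, 19 and 8 in the 10HDA libraries. Relative to the library totals alone, without TMM scaling, 3 counts corresponded to 0.224 to 0.328 CPM, and such a limit covers counting error only.

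Levels were compared between genes per kilobase of gene model. Among the pore subunits, the vehicle cultures had most RNA per kilobase from Cacna1b, which encodes the N-type channel of nerve terminals (27.6 ± 3.03 CPM per kilobase, SD, n = 3). It was followed by Hcn2 (22.8 ± 2.63), Hcn3 (21.6 ± 0.459), the T-type gene Cacna1h (21.3 ± 3.75), and Scn2a (20.0 ± 4.48), the sodium channel of young axons, and the means of these 4 differed by less than the larger of their SDs. The auxiliary subunits reached higher levels, with Cacng4 at 87.6 ± 5.45 CPM per kilobase, Cacnb3 at 77.4 ± 5.76, Cacng7 at 72.7 ± 4.67 and Scn3b at 52.4 ± 3.42. Cacnb3 and Cacng7 differed by less than the sum of their SDs, and Scn3b lay below both. At the low end was Scn9a (0.324 ± 0.0769), the sodium channel of pain neurons. The deposited gene models were shorter than the exons of GENCODE M21 for some genes, and the levels per kilobase refer to the deposited models.

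**Figure D1:**
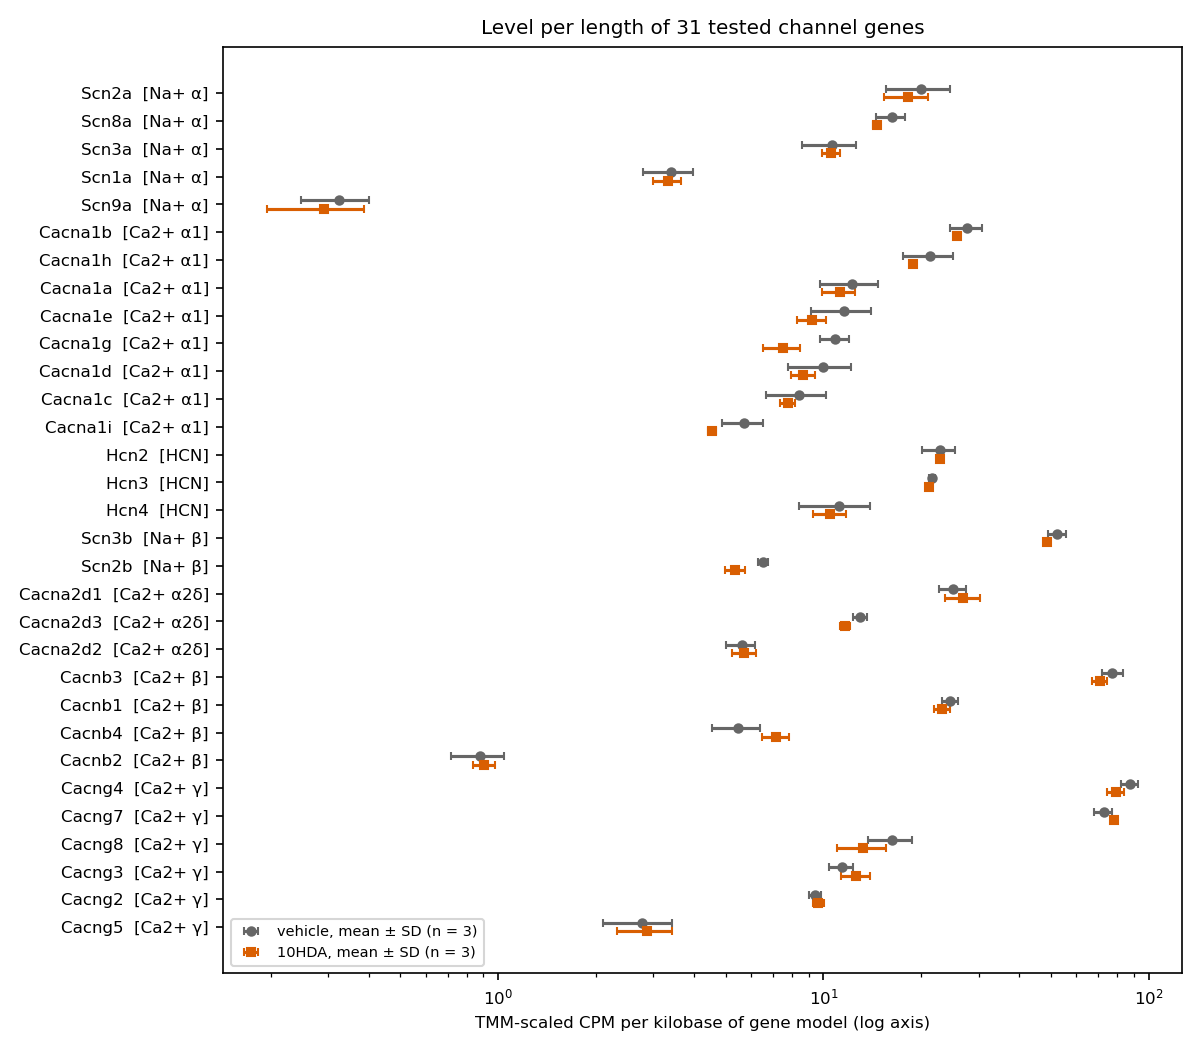
TMM-scaled CPM per kilobase of gene model (log axis) of 31 of the 34 tested channel genes, grouped by subunit class, as mean ± SD over 3 vehicle libraries (grey circles) and 3 10HDA libraries (orange squares). The genes shown span from Scn9a, at 0.324 CPM per kilobase with vehicle, to Cacng4 at 87.6.

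In several classes a few genes made up most of the level, whereas that of the calcium channel α1 subunits was spread over 8 tested genes, from Cacna1b (25.8% ± 1.32 with vehicle) to Cacna1i (5.29% ± 0.149). Scn2a made up 39.0% ± 2.52 of the summed per-kilobase level of the sodium channel α subunits with vehicle and 38.3% ± 3.22 with 10HDA. Scn8a, the channel of mature axon initial segments and nodes, gave 32.1% ± 2.61 and 31.0% ± 1.77, and Scn3a, the form of the fetal brain, gave 20.8% ± 1.81 and 22.4% ± 1.31. Scn1a, which serves mainly inhibitory interneurons, gave 6.65% ± 0.329 and 7.02% ± 0.298. Hcn2 and Hcn3 made up most of the HCN level, with 39.1% ± 5.20 and 37.0% ± 0.748 for vehicle and 40.2% ± 1.27 and 37.3% ± 1.29 for 10HDA. Cacnb3 gave 71.4% ± 2.35 of the calcium channel β subunits with vehicle and 69.3% ± 0.729 with 10HDA, and Scn3b gave 71.5% ± 1.93 and 72.8% ± 1.04 of the sodium channel β subunits. The T-type genes Cacna1g, Cacna1h and Cacna1i together held 35.2% ± 0.607 of the calcium α1 level with vehicle and 33.0% ± 1.63 with 10HDA, and the 10HDA value was the lower one in each culture.

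The methods for this experiment name edgeR without a culture term and do not say which of its tests was used. With its quasi-likelihood test and no culture term, 0 of the 34 channel genes passed a Benjamini-Hochberg adjusted p of 0.1, and 0.509% of the 15311 genes tested did (78 genes). At an unadjusted p under 0.05 there were 6 channel genes, 17.6% against 10.4% of all genes. With culture as a block there were 7, or 20.6% against 18.7% of all genes. DESeq2 (1.18% of all genes called) and edgeR's likelihood ratio test (2.01%) each called 1 channel gene, Cacna1g (adjusted p = 0.011 and 0.0097), and limma-voom called 0 (0.411%). With culture as a block, 4 channel genes passed, while 7.5% of all genes did (1148 genes). The T-type genes Cacna1g and Cacna1i and the R-type gene Cacna1e fell (3.58% of all genes were called lower), and Cacnb4 rose (3.92% were called higher). Neither share of called channel genes was compared by a test with the share of all genes.

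The T-type calcium channels open at low voltages, close to rest, and give burst firing. Cacna1g (ENSMUSG00000020866.13, chr11:94408391-94474198, minus strand, GENCODE M21 on GRCm38) was counted at 97.2, 116 and 118 CPM in the vehicle libraries of cultures 1, 3 and 4, and at 76.2, 85.6 and 66.1 CPM in the 10HDA libraries. Every 10HDA library was below every vehicle library. The mean went from 110.3 ± 11.4 to 76.0 ± 9.78 CPM (SD, n = 3), a log2 fold change of -0.54 (SE 0.12, edgeR adjusted p = 0.13), which is 31.0% lower. With culture as a block it was -0.54 (SE 0.10, edgeR adjusted p = 0.0031). The log2 ratios within cultures 1, 3 and 4 were -0.35, -0.43 and -0.84, lower in 3 of 3 cultures. Without the block, it passed when the vehicle library of culture 1 (adjusted p = 0.080) or the 10HDA library of culture 4 (0.086) was left out of edgeR's fit. Leaving out culture 4 took the blocked value to -0.41 and its adjusted p from edgeR to 0.15, and leaving out culture 1 gave -0.63 (adjusted p = 0.00044).

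Cacna1i (ENSMUSG00000022416.11, chr15:80287238-80398279, plus strand), the slowest T-type channel, had 47.4, 57.8 and 63.1 CPM with vehicle and 43.4, 45.6 and 45.7 CPM with 10HDA in cultures 1, 3 and 4. The groups did not overlap, and the within-culture ratios were -0.13, -0.34 and -0.47. The log2 fold change was -0.32 (SE 0.12, edgeR adjusted p = 0.38) and -0.31 (SE 0.10, edgeR adjusted p = 0.091) with culture as a block. Without culture 4 the blocked adjusted p from edgeR was 0.53, scaling by library size alone gave 0.16 with the block, and without culture 1 the blocked value was -0.40 (edgeR adjusted p = 0.052). The third T-type gene, Cacna1h, had 177, 199 and 249 CPM with vehicle and 180.5, 185 and 187 CPM with 10HDA, with a log2 fold change of -0.18 (SE 0.12) and overlapping groups. It did not pass the test in either fit (edgeR adjusted p = 0.63, and 0.39 with the block). The median of the 3 T-type genes was -0.32, against -0.16 for the L-type pair and -0.12 for the P/Q-, N- and R-type genes.

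**Figure D2:**
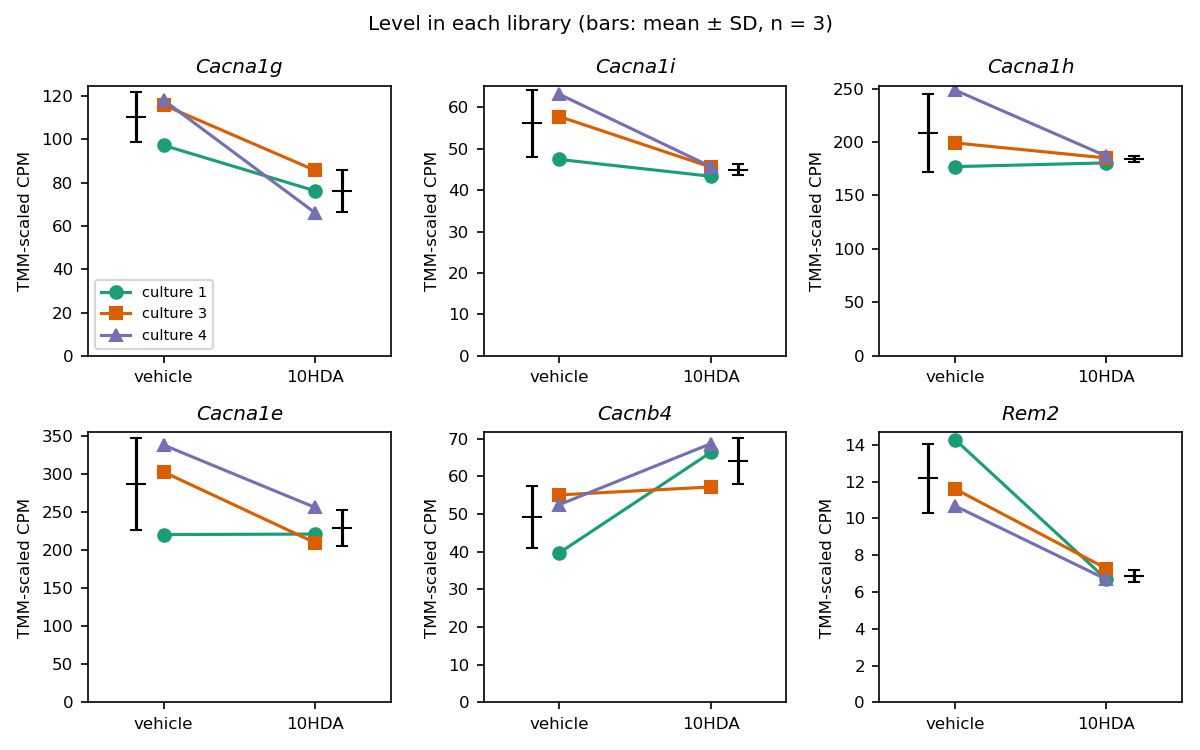
TMM-scaled CPM (linear axis from 0) of the 3 T-type genes, Cacna1e, Cacnb4 and the partner gene Rem2 in each library, with lines joining the vehicle and 10HDA libraries of a culture and bars for mean ± SD (n = 3). Cacna1g and Cacna1i were lower with 10HDA in all 3 cultures, Cacnb4 was higher in all 3, and Cacna1e was level in culture 1.

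The high-voltage-activated calcium channels serve transmitter release (P/Q-, N- and R-type) and calcium signals in the cell body and dendrites (L-type). Cacna1e (ENSMUSG00000004110.10, chr1:154390731-154884501, minus strand), the R-type pore, had 221, 303 and 338 CPM in the vehicle libraries and 221, 210.2 and 256 CPM in the 10HDA libraries of cultures 1, 3 and 4. The vehicle library of culture 1 lay among the 10HDA libraries, and the ratio in that culture was 0.0044 against -0.53 and -0.40 in the others. The log2 fold change was -0.33 (SE 0.15, edgeR adjusted p = 0.47), and -0.31 (SE 0.10, edgeR adjusted p = 0.086) with culture as a block. Without culture 1 the blocked value was -0.47 (edgeR adjusted p = 0.0041), without culture 3 it was -0.21 (0.27) and without culture 4 it was -0.28 (0.44). Scaled by library size alone, it missed the threshold with the block (-0.25, edgeR adjusted p = 0.16).

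The other 4 high-voltage tested genes also had values below 0 and passed in neither fit. Cacna1b (ENSMUSG00000004113.14, chr2:24603887-24763152, minus strand) had 242, 279 and 302 CPM with vehicle and 254, 256 and 258 CPM with 10HDA, a log2 fold change of -0.10 (SE 0.10) with overlapping groups. The log2 fold changes were -0.12 (SE 0.14) for Cacna1a, the P/Q-type pore, -0.12 (SE 0.14) for the L-type Cacna1c, and -0.20 (SE 0.14) for the L-type Cacna1d. All 8 tested α1 genes therefore had a value below 0, with a median of -0.19, and all 8 were lower in cultures 3 and 4, but in culture 1 this held for 2 of 8 (Cacna1g and Cacna1i). These signs held under every scaling tried, and that of Cacna1c turned to above 0 (0.0024) once a trend on gene length was removed.

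Among the sodium channel α subunits no gene passed in either fit. Scn8a (ENSMUSG00000023033.10, chr15:100869858-101045938, plus strand) had 177, 195 and 218 CPM with vehicle and 181, 172 and 179 CPM with 10HDA, a log2 fold change of -0.15 (SE 0.10). The groups overlapped, since the 10HDA library of culture 1 exceeded the vehicle library of that culture. Scn2a had -0.14 (SE 0.16), Scn1a -0.032 (SE 0.14) and Scn3a -0.0040 (SE 0.13), on the log2 scale, and the signs of Scn1a and Scn3a turned to above 0 when only library size was used for scaling. In these 3 genes the 10HDA library was the higher one in culture 1 (0.24, 0.33 and 0.43) and the lower one in cultures 3 and 4. Without culture 1, Scn2a passed with the block (5 channel genes passed then, and 6.49% of all genes). Scn9a, of low level, had -0.16 (SE 0.28).

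The genes of 4 neighbouring sodium channels on chromosome 2 (Scn1a, Scn2a, Scn3a and Scn9a) share sequence. Between 4.03% and 6.49% of the 50-base windows of their transcripts, 50 bases being the read length, also occur in another gene's transcripts, so some of their reads cannot be assigned. Cacna1g and Cacna1i shared 0.18% and 0.20% of their windows with other genes, and 20 of the 34 tested genes were under 1%.

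Of the HCN genes, Hcn3 (ENSMUSG00000028051.6, chr3:89146074-89160196, minus strand) was counted at 89.9, 87.5 and 91.3 CPM with vehicle and at 86.9, 88.8 and 88.2 CPM with 10HDA. The groups overlapped, and the log2 fold change was -0.025 (SE 0.092). Of its exon bases 17.1% overlap the gene Pklr on the other strand, which was itself counted 1 to 6 times. Hcn2, the cAMP-sensitive form found widely in brain, was the only pore gene with a value above 0, 0.0054 (SE 0.11). That sign turned to below 0 with relative log expression (RLE) scaling in edgeR or with upper quartile scaling. Hcn4, best known as the pacemaker channel of the heart, had -0.093 (SE 0.17). It was higher with 10HDA in culture 1 and lower in cultures 3 and 4.

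Taken as a class, 17 of 18 pore genes had a log2 fold change below 0, with a median of -0.15, while 47.4% of all genes were below 0 and their median was 0.013. Scaled by library size alone, 14 of 18 were below 0 with a median of -0.083, against 0.075 for all genes. The count rested on cultures 3 and 4. In culture 1 the pore median was 0.028, with 6 of 18 below 0, whereas in cultures 3 and 4 it was -0.19 and -0.25, with 16 and 17 of 18 below 0. Without the vehicle library of culture 4 the median was -0.020 with 11 of 18 below 0, without the vehicle library of culture 1 it was -0.28, and without both libraries of culture 1 it was -0.25. The summed CPM of the pore genes was 1781, 2164 and 2417 in the vehicle libraries of cultures 1, 3 and 4, and 1862, 1829 and 1987 in the 10HDA libraries. The vehicle libraries spread more widely (2120 ± 320.3, SD, n = 3) than the 10HDA libraries (1893 ± 83.6), and the groups overlapped.

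**Figure D3:**
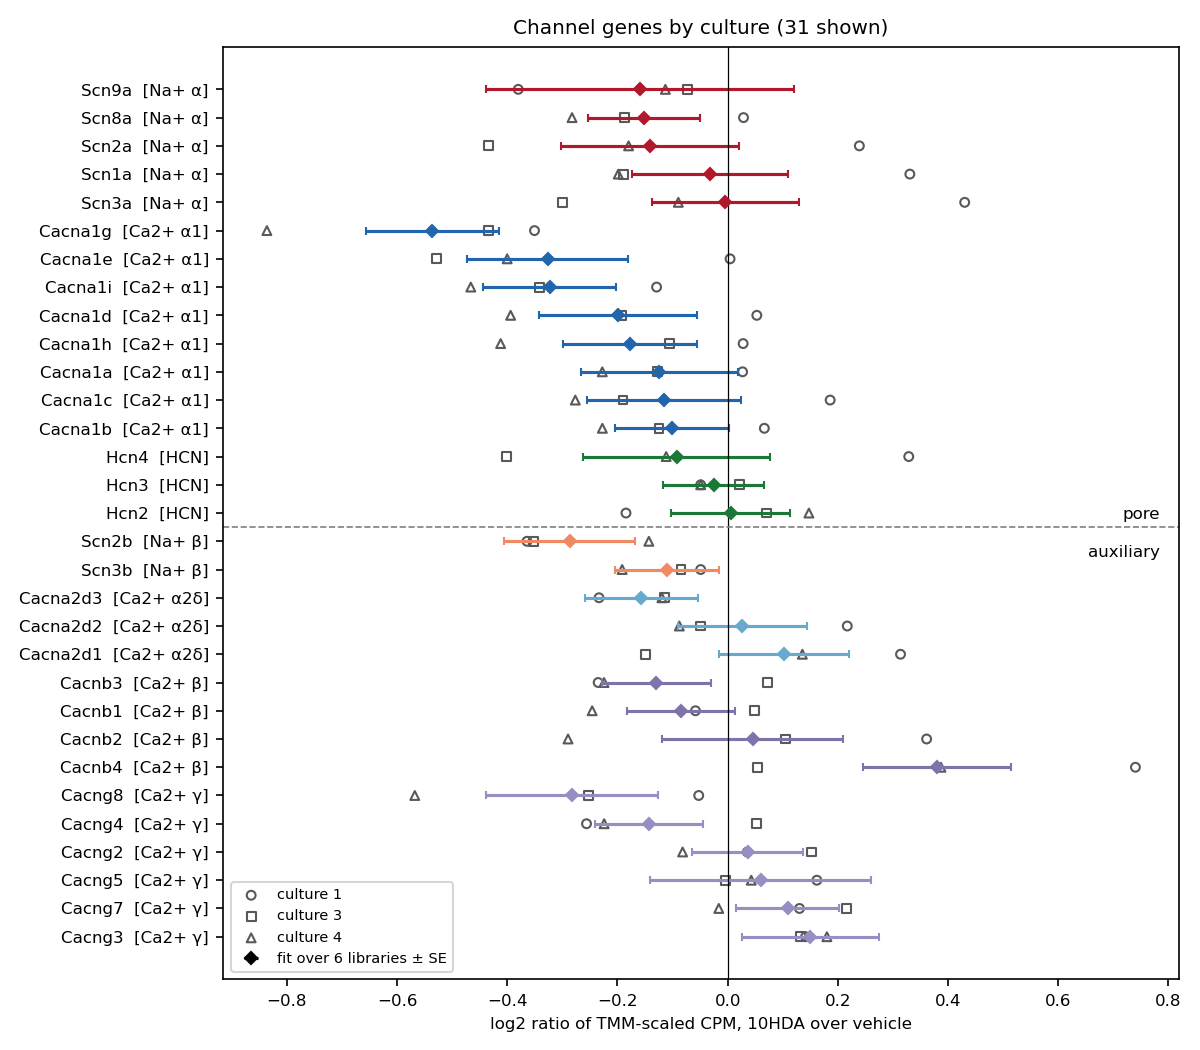
Log2 ratio of TMM-scaled CPM, 10HDA over vehicle, of 31 of the 34 tested channel genes within cultures 1 (circles), 3 (squares) and 4 (triangles), with the fit over 6 libraries ± SE (diamonds), grouped by subunit class with pore subunits above the dashed line. Of the 16 pore genes shown, 5 lie below 0 in culture 1, 14 in culture 3 and 15 in culture 4.

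The auxiliary genes were divided. Of 16 tested, 8 were below 0 and 8 above, with a median of -0.029 that turned to 0.034 with library size alone. The distance from the pore median depended on single libraries and on the filter. Without the vehicle library of culture 4 both medians were -0.020. Without the 10HDA library of culture 3 the pore median was -0.11 and the auxiliary median -0.12, and at 10 CPM they were -0.14 and -0.097. In every other run with a library or culture left out the pore median was the lower one. Their summed CPM was 1641 ± 61.6 with vehicle and 1592 ± 12.1 with 10HDA (SD, n = 3). Over all 34 channel genes the median was -0.12, and 25 were below 0. In 6 channel genes the groups did not overlap with 10HDA the lower (6.47% of all genes did this), among them Cacna1g, Cacna1i, Scn2b, Scn3b and Cacna2d3, and in 1, Cacnb4, with 10HDA the higher (7.3% of all genes). Within cultures, 9 channel genes were lower in 3 of 3 (17.6% of all genes) and 2, Cacnb4 and Cacng3, were higher in 3 of 3 (21.2% of all genes).

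The sodium channel β subunits are single-pass membrane proteins with an immunoglobulin-like domain that also act in cell adhesion. Scn2b and Scn3b were lower with 10HDA in every culture and had groups that did not overlap, yet neither passed the test in either fit. Scn3b (ENSMUSG00000049281.11, chr9:40269217-40291618, plus strand) had 273, 288 and 311 CPM with vehicle and 264, 272 and 272 CPM with 10HDA, a log2 fold change of -0.11 (SE 0.095). Scn2b had 31.0, 29.1 and 29.0 CPM with vehicle and 24.1, 22.8 and 26.3 CPM with 10HDA. Its log2 fold change was -0.29 (SE 0.12, edgeR adjusted p = 0.42, and 0.16 with the block).

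The α2δ subunits are extracellular and are the targets of gabapentin (Cacna2d1 and Cacna2d2). Cacna2d1 (ENSMUSG00000040118.11, chr5:15934691-16374511, plus strand) had 168, 194 and 204 CPM with vehicle and 209, 175 and 224 CPM with 10HDA. The groups overlapped, and the log2 fold change was 0.10 (SE 0.12), with ratios of 0.31, -0.15 and 0.14 in cultures 1, 3 and 4. Cacna2d2 had 0.027 (SE 0.12), and Cacna2d3, at 47.9 ± 2.29 CPM with vehicle and 43.0 ± 1.53 CPM with 10HDA, had -0.16 (SE 0.10).

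The β subunits of calcium channels bind the pore inside the cell and bring it to the surface. Cacnb4 (ENSMUSG00000017412.11, chr2:52428320-52676831, minus strand), the form mutated in lethargic mice, had 39.7, 55.1 and 52.5 CPM in the vehicle libraries and 66.3, 57.1 and 68.6 CPM in the 10HDA libraries of cultures 1, 3 and 4. All 10HDA libraries were above all vehicle libraries, though in culture 3 the difference was small, as the ratios of 0.74, 0.054 and 0.39 show. The log2 fold change was 0.38 (SE 0.13, edgeR adjusted p = 0.36), or an increase of 30.2%, and 0.39 (SE 0.11, edgeR adjusted p = 0.056) with culture as a block. Without culture 1 the blocked value was 0.22 (edgeR adjusted p = 0.40), without culture 4 it was 0.37 (0.31), and without culture 3 it was 0.55 (0.00018). Of its exon bases 16.0% overlap A430018G15Rik on the other strand, a gene counted 0 to 4 times in a library against 442 to 786 counts for Cacnb4.

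Cacnb3 (ENSMUSG00000003352.9, chr15:98630840-98644529, plus strand), the most abundant β subunit, had 258, 222 and 244 CPM with vehicle and 219, 234 and 209 CPM with 10HDA. The groups overlapped and the log2 fold change was -0.13 (SE 0.10). Cacnb1 had -0.084 (SE 0.10) and Cacnb2 0.046 (SE 0.16). Cacnb4 made up 5.08% ± 1.03 of the per-kilobase level of the β subunits with vehicle and 7.03% ± 0.963 with 10HDA (SD, n = 3). In culture 3 this share was 6.02% with vehicle and 5.97% with 10HDA.

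Most γ subunits of the brain are better known as carriers of AMPA-type glutamate receptors than as calcium channel subunits. Cacng4 (ENSMUSG00000020723.3, chr11:107732357-107794557, minus strand) had 330.1, 292 and 318 CPM with vehicle and 276, 303 and 272 CPM with 10HDA, a log2 fold change of -0.14 (SE 0.10) with overlapping groups. Cacng8 had -0.28 (SE 0.16), and it passed the blocked test when culture 1 was left out. Cacng2, the gene disrupted in stargazer mice, had 0.036 (SE 0.10), Cacng3 0.15 (SE 0.12), Cacng5 0.060 (SE 0.20) and Cacng7 0.11 (SE 0.094). None of the 6 passed in either fit over all cultures.

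**Figure D4:**
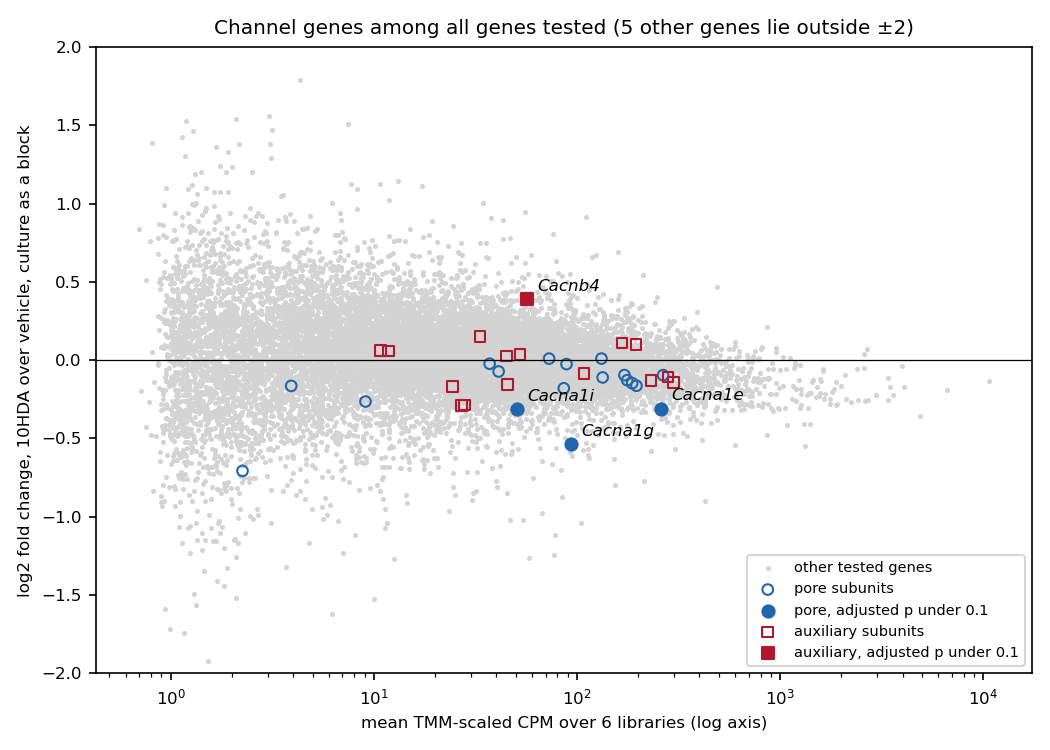
Log2 fold change, 10HDA over vehicle with culture as a block, against mean TMM-scaled CPM over 6 libraries (log axis) for the 15311 genes tested (grey), with pore subunits as blue circles and auxiliary subunits as red squares. Filled symbols mark the 4 channel genes with an adjusted p under 0.1, of which 3 are below 0 and Cacnb4 is above.

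Sequences around a start site are shown for Cacna1i and Cacna1e, which fell together with the block, and for Cacnb4, which rose. For Cacna1g, which also fell with the block, no window was available. The table used gives Cacna1i and Cacna1e 1 window each and Cacnb4 3, of which the one nearest to the 5′ end of the gene model is shown. The RefSeq start is the first base of the gene model for Cacna1i. Those of Cacnb4 and Cacna1e are internal starts, 688 and 158581 bases inside the gene models given above. The windows run from 250 bases before to 50 bases after a RefSeq start (GRCm38.p6), 5′ to 3′ on the strand of the gene, and capitals mark GGGCGG (the GC box) or TGACG (the core of the cyclic AMP response element) on either strand. The windows lie at chr15:80286988-80287287 (plus strand), chr1:154725871-154726170 (minus strand) and chr2:52676094-52676393 (minus strand).
Cacna1i: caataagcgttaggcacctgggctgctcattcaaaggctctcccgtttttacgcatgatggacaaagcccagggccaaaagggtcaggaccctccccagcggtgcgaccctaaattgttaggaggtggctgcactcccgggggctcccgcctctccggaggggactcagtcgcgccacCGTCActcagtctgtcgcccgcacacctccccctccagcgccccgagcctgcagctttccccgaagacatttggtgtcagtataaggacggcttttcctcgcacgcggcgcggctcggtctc
Cacna1e: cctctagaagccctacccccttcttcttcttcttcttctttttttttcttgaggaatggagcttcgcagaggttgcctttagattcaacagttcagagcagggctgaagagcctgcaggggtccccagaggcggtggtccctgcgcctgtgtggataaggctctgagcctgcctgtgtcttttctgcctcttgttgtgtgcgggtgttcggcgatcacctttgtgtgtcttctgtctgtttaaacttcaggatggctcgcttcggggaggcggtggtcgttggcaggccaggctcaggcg
Cacnb4: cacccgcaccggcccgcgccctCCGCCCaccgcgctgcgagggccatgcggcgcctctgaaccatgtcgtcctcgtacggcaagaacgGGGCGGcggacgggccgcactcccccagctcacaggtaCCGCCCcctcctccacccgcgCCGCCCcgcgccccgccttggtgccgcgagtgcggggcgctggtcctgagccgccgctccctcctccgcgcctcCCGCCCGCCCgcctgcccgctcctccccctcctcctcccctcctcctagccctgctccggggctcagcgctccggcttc

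The Cacnb4 window shown held 6 GC boxes and a G+C content of 78.3%, while the 2 others of this gene held none (49.7% and 69.7%), that of Cacna1i held 1 TGACG and no GC box, and that of Cacna1e held neither. RefSeq windows were present for 32 of the 44 channel genes, 43 windows in all, and their median G+C content was 59.7% against 52.7% for 32851 windows of all genes. GGGCGG was found on either strand in 41.9% of the channel windows and 35.7% of all windows, and TATAAA in 4.65% and 13.6%. TGACG was found in 14.0% and 20.8%, and the full element TGACGTCA, which contains it, in 0 of 43 windows and 1.79% of all. Letters of the estrogen response element were searched because of the description of 10HDA. The full palindromic element was in 0 of 43 windows and 0.0700% of all, and its repeated unit GGTCA in 32.6% and 40.5%. These counts describe the letters of these windows only.

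A list of 43 genes whose products bind, anchor or modulate the channels was examined in the same way, and 41 were tested. Of these, 38 had a log2 fold change below 0, with a median of -0.20, against 47.4% of all genes below 0 and their median of 0.013. The neuron marker list was much the same, with 11 of 12 below 0 and a median of -0.22. Whether the partner genes differ from other neuronal genes was not tested. Within cultures 1, 3 and 4 the partner median was -0.045, -0.26 and -0.23, with 26, 34 and 39 of 41 lower. Without the block 1 passed, Rem2 (0.509% of all genes passed), and with the block 9 passed, all of them lower (3.58% of all genes were called lower). Without culture 1, 12 passed with the block (6.49% of all genes) and 0 without it (0%). Rem2, a small GTPase that inhibits high-voltage calcium channels, had 14.3, 11.6 and 10.7 CPM with vehicle and 6.69, 7.27 and 6.69 CPM with 10HDA. The groups did not overlap, with a log2 fold change of -0.82 (SE 0.17, edgeR adjusted p = 0.078) and -0.82 (adjusted p = 0.0032) with the block. Without the block it passed with 10HDA culture 4 left out (edgeR adjusted p = 0.050) and missed the threshold with any other single library left out (0.14 to 0.47) or with library size alone (0.15). With the block it passed without each culture in turn, at -0.68 (edgeR adjusted p = 0.035) without culture 1. A related GTPase gene, Gem, had 2.16, 1.13 and 1.66 CPM with vehicle and 2.17, 2.76 and 3.84 CPM with 10HDA, and its value of 0.82 (SE 0.31) missed the threshold (edgeR adjusted p = 0.38, and 0.10 with the block).

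The other 8 partner genes that fell with the block encode release and scaffold proteins that meet calcium channels at the terminal (Snap25, -0.37, Syt1, -0.30, Stx1a, -0.30, and Rimbp2, -0.37), the calcium sensor calmodulin (Calm2, -0.29, and Calm3, -0.30), its kinase Camk2a (-0.42) and the anchor Ank2 (-0.30), all as log2 fold changes with the block. Without the block their adjusted p from edgeR was 0.21 to 0.53. The groups of Rimbp2 and Ank2 overlapped, and the ratio of Ank2 was -0.017 in culture 1 against -0.49 and -0.41 in cultures 3 and 4. Snap25 and Syt1 also stand in the neuron marker list, and Camk2a in that of excitatory neurons. Calm2 and Calm3 encode the same protein, and how far their reads overlap was not examined. Those next in order of p were Fgf13 (-0.23), an intracellular partner of sodium channels, Camk2d (-0.26), the sodium leak channel gene Nalcn (-0.26) and the HCN partner Pex5l (-0.27), without the block, and none of the 4 passed in either fit.

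The libraries differed in how their levels followed gene length. Over all tested genes, a library's log2 deviation from the gene's mean correlated with gene length at a Spearman rho of -0.35, 0.30 and 0.24 in the vehicle libraries of cultures 1, 3 and 4 and of -0.18, -0.16 and 0.14 in the 10HDA libraries (n is genes of one library each time, not independent replicates). The pore genes are long, with a median model of 9902 bases, against 4182 bases for the auxiliary genes and 3548 for all genes. The median deviation of the pore genes was -0.18, 0.11 and 0.29 in the vehicle libraries and -0.10, -0.093 and 0.012 in the 10HDA libraries. The vehicle library of culture 1 was lowest and that of culture 4 highest for the pore genes. With a smooth trend on length removed from each library, an alternative chosen after seeing the data, the pore median was -0.098 with 15 of 18 below 0. With the block as well, Cacna1g (-0.50, edgeR adjusted p = 0.0034), Cacna1i (-0.28, 0.085) and Cacnb4 (0.42, 0.016) still passed (9.69% of all genes did), and Cacna1e did not (-0.20, 0.12).

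**Figure D5:**
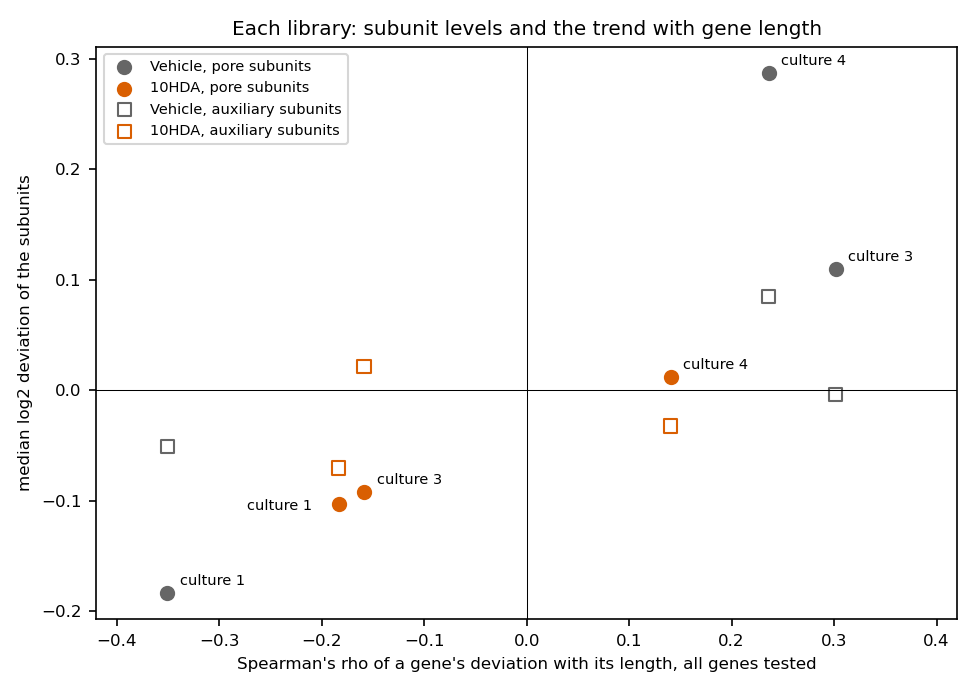
For each library, the median log2 deviation of the tested pore genes (filled circles) and auxiliary genes (open squares) from each gene's mean over 6 libraries, against the Spearman rho between deviation and gene length over all 15311 genes tested, vehicle in grey and 10HDA in orange. The vehicle library of culture 1 lies lowest on both axes for the pore genes, and the pore median is highest in the vehicle library of culture 4.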

How the data were processed

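RNA from 6 samples of primary cortical cell culture was sequenced with a strand-specific kit as single 50-base reads. Without trimming, the authors mapped the reads on mm10 using Subjunc (Subread 1.4.4), and featureCounts assigned them to Gencode gene models. Whether strand was used is not given in the sources used here. The deposited values are these raw counts with a gene length in bases, and they were neither normalized nor filtered by the authors. Identifiers were matched to symbols by GENCODE M21 (98.0% of 43346), and no sample column was left unused.

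Counts of every gene that reached 1 CPM in 3 or more libraries were tested with edgeR 4.0.16 (TMM, glmQLFit and glmQLFTest, R 4.3.3), with Benjamini-Hochberg adjustment over all 15311 genes and a threshold of 0.1. The methods for this experiment give that threshold and name no culture term. They filter at 10 CPM, which would leave 30 of the channel genes, so that filter is an alternative. Mean ± SD is over 3 libraries. The labels give each culture 1 library of each treatment, so the fit was repeated with culture as a block. As a check, each library's deviation from its treatment mean was correlated over genes, and the pairs gave 0.25, 0.22 and 0.45, whereas libraries from unlike cultures gave -0.31 to 0.082. Deviations from a treatment mean sum to 0 over its libraries. Pairs above 0 therefore pull the values of unlike cultures below 0, and these ranges are not independent of each other. Nothing in the labels says whether cultures came from separate litters, so p-values measure the spread between these libraries. Exact permutation of 3 and 3 libraries allows no p smaller than 0.1, so none is printed for single values.

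Some genes are not reported here by name and stay in the counts, medians and sums. The other channel genes are named, with values in each library for those past 0.1 in either fit and for the member of each class with the highest mean CPM. Scn2b and Cacna1h are also given by library, chosen after their values were seen. Of the partner list, those past 0.1 in either fit and the 5 next by p are named. The channel genes and the lists were chosen with earlier results of these data known. Promoter windows are from RefSeq. Alternatives were other scalings, filters, tests and a threshold of 0.05, with DESeq2 1.42.0 and limma 3.58.1, and each library or culture left out. The removal of a length trend and the blocked fits without 1 culture were added after seeing the data. Tested on simulated data of 15311 genes, the fit found 168 of 200 genes that carried a log2 difference of 1, with 19 false calls without and 27 with the block. The simulated counts had no culture effect and no trend with gene length, and no smaller difference was planted. They therefore do not measure the blocked fit on paired cultures, or the power for the smaller differences of the channel genes. The libraries of the other experiment of the study were not analysed here.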

Additional observations from a re-analysis of the deposited data

How the results depend on the processing

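The number of channel genes past the threshold was 0 with the 3 other scalings, with a limit of 10 CPM, with limma-voom and at an adjusted p of 0.05 (0.196% to 0.627% of all genes passed in these fits), and 1 with DESeq2 (1.18%), with the likelihood ratio test (2.01%) and with no filter (2.37%, Cacna1g each time). Pairing by culture (the replicate block) gave 4 (7.5% of all genes), also with a limit of 10 CPM (8.98%), 3 with the length trend removed (9.69%, Cacna1e lost) and 2 with library size alone (9.54%, Cacna1e and Cacna1i lost). With single libraries or cultures left out, with or without the block, it ranged from 0 to 5 (0% to 8.46% of all genes). Partner genes past the threshold, to be read against the same shares, were 1 as reported, 0 with library size alone, with limma-voom and at 0.05, 2 with DESeq2, and 3 with the likelihood ratio test and with no filter. The block gave 9, also at 10 CPM, 5 with library size alone and 10 with the length trend removed, and the range with libraries or cultures left out was 0 to 12. The auxiliary median was -0.097 at 10 CPM and ranged from -0.12 to 0.013 with libraries or cultures left out. With a culture left out the limit was 1 CPM in 2 libraries. The cause of these moves was not tested.

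The 4 channel genes past the threshold with the block (Cacna1g, Cacna1i, Cacna1e and Cacnb4) kept their signs in every alternative run, and over all cultures the block changed no other channel gene's call. Other signs turned. Hcn2 was -0.0042 with RLE scaling in edgeR, -0.0033 with upper quartile scaling and -0.0068 at 10 CPM. It was -0.0041 with DESeq2 and -0.021 with the length trend removed. With the block it was -0.0025 at 10 CPM and -0.019 with the length trend removed. Scn3a was 0.058 with library size alone, 0.012 with limma-voom, 0.010 with the block, 0.071 with the block and library size alone, and 0.067 with the length trend removed with or without the block. Scn1a was 0.032 and, with the block, 0.039 with library size alone, and 0.023 and 0.024 with the length trend removed. Hcn3 was 0.036 with library size alone with or without the block, and Cacna1c was 0.0024 and 0.0040 with the length trend removed. With libraries or cultures left out the ranges that crossed 0 were -0.25 to 0.040 (Cacna1a), -0.27 to 0.020 (Cacna1c), -0.0096 to 0.21 (Cacna2d1), -0.067 to 0.11 (Cacna2d2), -0.11 to 0.21 (Cacnb2), -0.039 to 0.074 (Cacng2), -0.12 to 0.28 (Cacng5), -0.081 to 0.11 (Hcn2), -0.28 to 0.055 (Hcn4), -0.20 to 0.10 (Scn1a), -0.31 to 0.0088 (Scn2a), -0.20 to 0.14 (Scn3a) and -0.41 to 0.083 (Scn9a). Scn9a was counted 27 to 66 times in a library.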
